A study of Oryza sativa Japonica Group with 4 samples.

Results

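Anthers of the sterile rice segregant *sstl-s* were compared with anthers of its fertile counterpart *SSTL-F* at late pollen mitosis (LpM), across all genes with at least 10 read counts in either LpM library. Of the 35825 genes in the deposited tables, 23865 met this rule. Both plants are segregants of the semi-sterile line *sstl*, a mutant of the T-DNA collection TRIM in the japonica cultivar Tainung 67. Its sterility did not go with the T-DNA insert. The *sstl-s* libraries are labelled as semi-sterile mutant with sterile panicles, and the *SSTL-F* libraries as control with fertile panicles. All plants were kept in 1 kind of growth chamber. RNA of anthers was sequenced from 1 library for each genotype at LpM and at the earlier young microspore (YM) stage, which makes 4 libraries. How many plants were pooled for a library is not given in the sources used here, and no difference between libraries has a replicate check. The 4 libraries held between 10161675 and 11559430 counts, and at LpM *sstl-s* had 11076871 and *SSTL-F* had 11523243. At that depth 3 counts equal 0.271 CPM (counts scaled to library size) in *sstl-s* and 0.260 CPM in *SSTL-F*. In ratios, 3 counts stood in for a count of 0, and other low counts were used as measured.

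After meiosis, microspores are freed from tetrads, divide into a vegetative and a generative cell, and the generative cell divides again to form the sperm cells. The tapetum, the innermost layer of the anther wall, feeds the microspores and makes the precursors of sporopollenin, the polymer of the outer pollen wall (exine), before it degrades. In the last phase pollen imports sugar, fills with starch and builds an inner wall (intine) of cellulose, pectin and arabinogalactan proteins, which the pollen tube later extends. In *SSTL-F* at LpM the study describes starch-filled pollen and a degraded tapetum, whereas *sstl-s* held defective pollen and remains of tapetum. In bulk anthers, fewer cells of a type and less RNA per cell cannot be told apart.

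The label of the tissue was first set against marker genes, which were rewritten to the names in the tables after these had been seen. The floral genes listed for stamen identity, MADS BOX GENE 2, 4 and 58, together had 8779 counts in *sstl-s* and 7521 in *SSTL-F* at LpM. Whether they mark stamens alone was not tested. Carpel and ovule genes were present as well, with 568 counts of DROOPING LEAF in *sstl-s* and 531 in *SSTL-F*, and 1793 and 1401 counts over the 4 genes of that list in *sstl-s* and *SSTL-F*, none of them at 0. At YM the same 4 genes summed to 1338 counts in *sstl-s* and 560 in *SSTL-F*. MADS BOX GENE 13 had 979 counts in *sstl-s* and 676 in *SSTL-F* at LpM, against 645 in *sstl-s* and 202 in *SSTL-F* at YM. Of 3 late-pollen markers, pollen-specific protein SF21 had 417 counts in *sstl-s* and 469 in *SSTL-F*, Pollen Ole e I allergen and extensin 19 had 113 and 101 in *sstl-s* and *SSTL-F*, and the pollen-specific calmodulin-binding protein was at 0 in all 4 libraries. SF21 had 524 counts in *sstl-s* and 399 in *SSTL-F* at YM, so that this marker was at a like level at both stages. These 3 markers were picked by words in their names. The genes that the study counts as preferred in late pollen, such as Os09g0388400 below, were not among them. The study reports those genes as higher in *SSTL-F* at LpM.

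Genes of the tapetum and of exine synthesis led both LpM libraries, also the fertile one. The 10 tapetum markers summed to 92008 counts in *sstl-s* and 114454 in *SSTL-F* at LpM, against 56190 and 89794 counts in the YM libraries of *sstl-s* and *SSTL-F*. Most of this sum came from genes of exine synthesis. These were thus abundant in the *SSTL-F* library labelled LpM, a stage at which the study describes the tapetum as gone. Other markers of the list were lower there than at YM in *SSTL-F*. MICROSPORE AND TAPETUM REGULATOR1 had 625 counts at YM and 25 at LpM, and TDR INTERACTING PROTEIN2 had 994 and 172. ETERNAL TAPETUM 1 went the other way in *SSTL-F*, with 1742 counts at YM and 4237 at LpM. The 2 LpM libraries shared 9 of their 10 most abundant genes. First in both came subtilisin 42, a serine protease, with 57616 counts in *sstl-s* and 85769 in *SSTL-F*. Next came polyketide synthase 1, which makes sporopollenin precursors, with 49764 counts in *sstl-s* and 61545 in *SSTL-F*. CYTOCHROME P450 HYDROXYLASE 704B2 and 703A3, fatty acid hydroxylases of exine synthesis, had 39460 and 28841 counts in *sstl-s*, against 53668 and 29630 counts in *SSTL-F*. MALE STERILITY 2, which reduces fatty acids to alcohols for the exine, had 33658 counts in *sstl-s* and 32623 in *SSTL-F*. None of 12 exine genes passed 2-fold at LpM, and their log2 ratios of *sstl-s* over *SSTL-F* ran from -0.55 (WAX-DEFICIENT ANTHER 1) to 0.50 (DEFECTIVE POLLEN WALL 2). On the deposited TPM scale, which corrects for gene length, the level of polyketide synthase 1 was 5114 in *sstl-s* and 6076 in *SSTL-F*, below that of METALLOTHIONEIN2B, 7211 in *sstl-s* and 7657 in *SSTL-F*. The 10 most abundant genes held 3.44% of the counts in *sstl-s* and 3.93% in *SSTL-F*.

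Across the genes kept, 1099 had a level in *sstl-s* at least 2-fold above *SSTL-F* (4.61%) and 1581 a level at least 2-fold below (6.62%), on counts scaled to the library total. The counts past 2-fold given below for gene lists are to be read against these shares of 4.61% higher and 6.62% lower. The median log2 ratio of all 23865 genes was 0.06. Many of these calls rest on few counts. With each ratio was computed a 95% exact Clopper-Pearson interval, which covers counting error only. By the stricter rule that the whole interval lies past 2-fold, 245 genes were higher in *sstl-s* (1.03%) and 422 lower (1.77%). Of the 5736 genes with at least 10 but under 50 counts in the higher library, 692 had a level in *sstl-s* at least 2-fold above and 859 at least 2-fold below *SSTL-F*, whereas of the 2983 genes with 1000 counts or more there were 39 higher and 56 lower. The 22 genes with at least 10 counts in *sstl-s* and none in *SSTL-F* had at most 187 counts, and the 18 genes with at least 10 counts in *SSTL-F* and none in *sstl-s* had at most 52. Gene names are given as the tables print them. Most genes carry only a RAP-DB identifier that the sources used here do not pair with a name, and of these few are named.

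**Figure D1:**
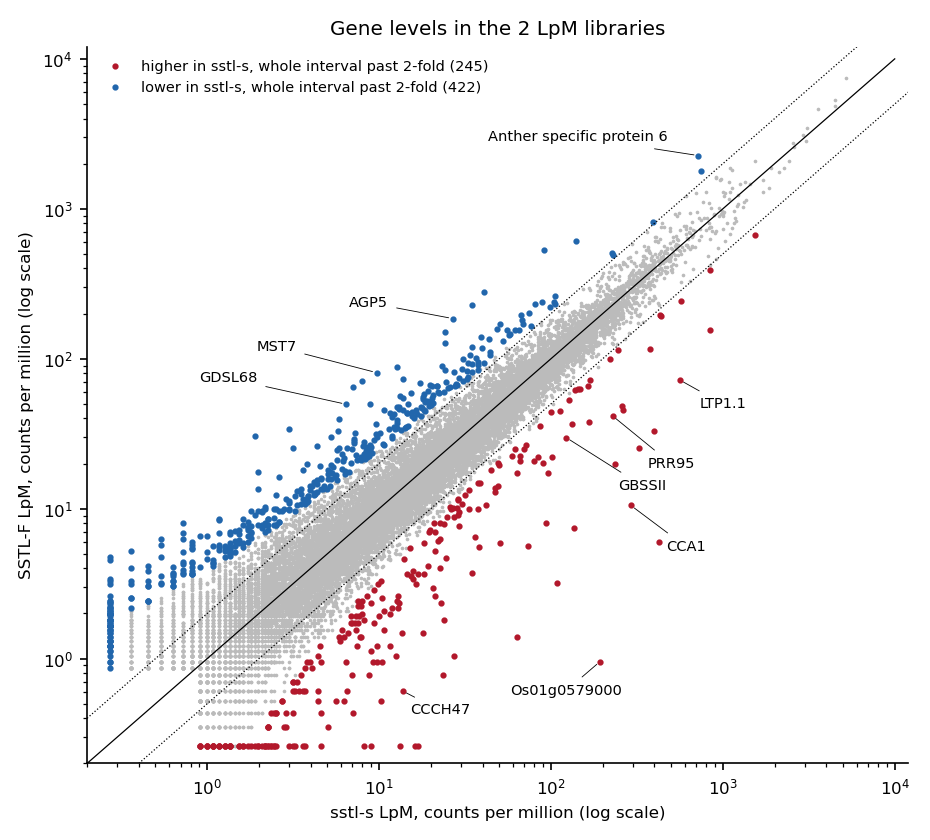
Levels of the 23865 genes at LpM, with CPM in *sstl-s* on the horizontal axis and in *SSTL-F* on the vertical axis (both log scales, counts below 3 drawn at 3, solid line for equal levels, dotted lines for 2-fold). The 245 genes in red and the 422 in blue have their whole counting interval past 2-fold, and the most abundant genes lie near the solid line.

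Some genes for sugar carriers were among those furthest below *SSTL-F*, though in bulk anthers their place of action was not tested. Monosaccharide transporter 7 had 107 counts in *sstl-s* and 931 in *SSTL-F*, 8.36-fold lower in *sstl-s* (log2 ratio -3.06, interval -3.37 to -2.77). At YM it had 5 counts in *sstl-s* and 0 in *SSTL-F*, so that in both genotypes nearly all of its reads came from the LpM library. SWEET6B, of a family of sugar efflux carriers, had 22 counts in *sstl-s* and 156 in *SSTL-F* (6.82-fold lower). SUCROSE TRANSPORTER 5 had 118 counts in *sstl-s* and 523 in *SSTL-F* (4.26-fold lower), while at YM the values were 54 in *sstl-s* and 45 in *SSTL-F*. SUCROSE TRANSPORTER 5 thus set the LpM libraries apart and was at a like level in the YM libraries. Monosaccharide transporter 7 had too few counts at YM for the genotypes to be compared there, and no YM counts are given here for SWEET6B. A vacuolar invertase, which splits sucrose inside the cell (invertase 3, also named as fructosyl transferase), had 431 counts in *sstl-s* and 1600 in *SSTL-F* at LpM.

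The sugar and starch list as a whole held both directions. Of its 61 members kept, 3 were at least 2-fold higher and 9 at least 2-fold lower in *sstl-s*, and the median log2 ratio was 0.10, close to that of all genes. SUCROSE SYNTHASE 3 was also among the 9 lower genes, with 152 counts in *sstl-s* and 376 in *SSTL-F*, and SUCROSE SYNTHASE 1 lay below *SSTL-F* within 2-fold, with 12198 in *sstl-s* and 21400 in *SSTL-F*. The remaining 4 of the 9 (SWEET1B, monosaccharide transporters 2 and 3 and vacuolar acid invertase 2) had at most 121 counts in either LpM library. SUCROSE SYNTHASE 2, which splits sucrose for use by sink tissue, had 49694 counts in *sstl-s* and 56274 in *SSTL-F*. The counts of monosaccharide transporter 6 were 1741 in *sstl-s* and 1968 in *SSTL-F*. Enzymes of starch synthesis and breakdown mostly stayed within 2-fold, and several of them lay above *SSTL-F*. SOLUBLE STARCH SYNTHASE IIIB had 944 counts in *sstl-s* and 590 in *SSTL-F*, and starch phosphorylase 1 had 2027 in *sstl-s* and 1204 in *SSTL-F*. SOLUBLE STARCH SYNTHASE I lay below, with 755 in *sstl-s* and 981 in *SSTL-F*. ADP-GLUCOSE PYROPHOSPHORYLASE SMALL SUBUNIT 1, of the enzyme that supplies the sugar donor, had 2254 counts in *sstl-s* and 2822 in *SSTL-F*, and STARCH BRANCHING ENZYME 1 had 1438 in *sstl-s* and 1319 in *SSTL-F*. GRANULE BOUND STARCH SYNTHASE II, an amylose-making enzyme, was above *SSTL-F* by more than 2-fold, with 1359 counts in *sstl-s* and 343 in *SSTL-F* (4.12-fold higher in *sstl-s*). It was also higher in *sstl-s* at YM, with 1518 counts against 485 in *SSTL-F*. Cell-wall invertase 4, which splits sucrose outside the cell, had 235 counts in *sstl-s* and 81 in *SSTL-F* at LpM, and 491 in *sstl-s* and 496 in *SSTL-F* at YM.

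Arabinogalactan proteins, sugar-coated proteins of the plasma membrane and wall, were mostly lower in *sstl-s*. Of 38 members kept, 18 were at least 2-fold lower and 1 at least 2-fold higher, and 34 had a ratio below 1, with a median log2 ratio of -0.89. ARABINOGALACTAN PROTEIN 5 had 297 counts in *sstl-s* and 2136 in *SSTL-F* (6.91-fold lower, interval of the log2 ratio -2.97 to -2.61), with 236 in *sstl-s* and 289 in *SSTL-F* at YM. ARABINOGALACTAN PROTEIN 27 had 90 counts in *sstl-s* and 322 in *SSTL-F* at LpM but 305 in *sstl-s* and 71 in *SSTL-F* at YM. At YM the list as a whole had a median log2 ratio of 0.18, with 7 of 37 members at least 2-fold higher in *sstl-s* and 3 lower.

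Other genes of the wall were lower as well. The intine and tube-wall lists included beta-galactosidases, which trim galactose from wall sugars, added after the values had been seen. BETA-GALACTOSIDASE 5 had 35 counts in *sstl-s* and 292 in *SSTL-F* (8.02-fold lower), and 2 in each genotype at YM. BETA-GALACTOSIDASE 14 had 225 counts in *sstl-s* and 758 in *SSTL-F*, whereas BETA-GALACTOSIDASE 6 had 174 in *sstl-s* and 44 in *SSTL-F*. Of the 13 beta-galactosidases kept, 4 were at least 2-fold lower and 1 higher in *sstl-s*. Both forms of REPETITIVE PROLINE-RICH PROTEIN 2, structural wall proteins, were lower, with 48 and 169 counts in *sstl-s* (forms 2.1 and 2.2) against 301 and 676 in *SSTL-F*. RAPID ALKALIZATION FACTORs are small secreted peptides that signal at the cell wall. Of 15 kept, 8 were at least 2-fold lower in *sstl-s*, none was 2-fold higher, and the median log2 ratio was -1.17. This list, too, was added after the values were seen. RAPID ALKALIZATION FACTOR 14 had 24 counts in *sstl-s* and 115 in *SSTL-F*, and RAPID ALKALIZATION FACTOR 5 had 308 in *sstl-s* and 757 in *SSTL-F*.

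Genes of pectin and cellulose passed 2-fold less often than the arabinogalactan proteins and RAPID ALKALIZATION FACTORs. Over all genes kept, 6.62% were at least 2-fold lower and 4.61% higher. Of 19 genes in the pectin list, 3 were at least 2-fold lower and none higher in *sstl-s*, a larger share than that of all genes. PECTIN METHYLESTERASE 3 had 149 counts in *sstl-s* and 384 in *SSTL-F*. The pectin list also took in an inhibitor by its name, POLYGALACTURONASE-INHIBITING PROTEIN 6. CELLULOSE SYNTHASE A8, a subunit of the cellulose-making complex, had 3293 counts in *sstl-s* and 6761 in *SSTL-F*, just short of 2-fold. It belongs to a list of 34 genes for cellulose, callose and glucan synthesis, of which 2 were at least 2-fold lower and 1 higher in *sstl-s* and 26 had a ratio below 1 (median -0.19). In the list of 18 genes of the actin cytoskeleton, none passed 2-fold, and Actin 2 had 3215 counts in *sstl-s* and 5158 in *SSTL-F*. BETA TUBULIN 8, in a separate list of tubulins and kinesins, had 126 counts in *sstl-s* and 390 in *SSTL-F* (2.98-fold lower). No other member of that list passed 2-fold in either direction.

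**Figure D2:**
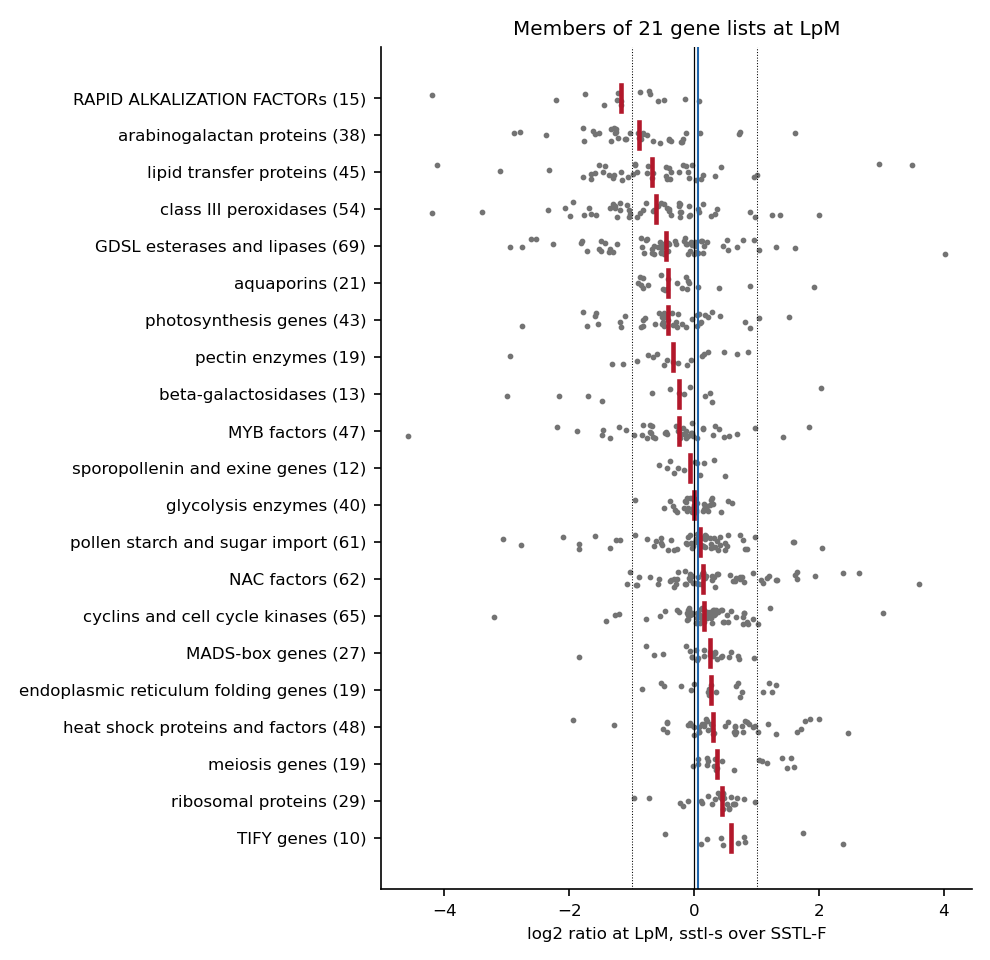
Log2 ratio at LpM (*sstl-s* over *SSTL-F*) for the members of 21 gene lists, 1 grey point a gene, with the number of genes kept in brackets and the median of each list in red (blue line, median of all genes, 0.06; dotted lines, 2-fold). Medians run from -1.17 in RAPID ALKALIZATION FACTORs to 0.58 in TIFY genes, and the members of every list spread over more than 1 log2 unit.

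Lipid handling showed both directions. GDSL esterases and lipases, a large family that cleaves esters, had 16 of 69 members at least 2-fold lower and 4 at least 2-fold higher in *sstl-s* (median -0.45). GDSL ESTERASE/LIPASE PROTEIN 68 had 71 counts in *sstl-s* and 573 in *SSTL-F* (7.76-fold lower), and 1 and 0 counts in *sstl-s* and *SSTL-F* at YM. GDSL ESTERASE/LIPASE PROTEIN 30, among the most abundant genes of *sstl-s*, had 26855 counts in *sstl-s* and 24117 in *SSTL-F* at LpM, against 6945 in *sstl-s* and 18122 in *SSTL-F* at YM. Lipid transfer proteins carry lipids through the wall, and 16 of 45 were at least 2-fold lower in *sstl-s* and 3 higher (median -0.67). GPI-anchored non-specific lipid transfer protein 1 had 376 counts in *sstl-s* and 1222 in *SSTL-F*. In the other direction, lipid transfer protein 1.1 had 6224 counts in *sstl-s* and 831 in *SSTL-F* at LpM (7.79-fold higher in *sstl-s*). At YM it had 7479 counts in *sstl-s* and 14585 in *SSTL-F* and was thus lower in *sstl-s*. Lipid transfer protein 2.2 took the same turn, with 9313 counts in *sstl-s* and 4844 in *SSTL-F* at LpM and 10937 in *sstl-s* and 17617 in *SSTL-F* at YM.

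Of the class III peroxidases, which oxidise phenolic compounds of the wall, 21 of 54 were at least 2-fold lower and 3 higher in *sstl-s*. The shares over all genes kept were 6.62% lower and 4.61% higher. Class III peroxidase 39 had 561 counts in *sstl-s* and 1977 in *SSTL-F*. CLASS I CHITINASE, a defence enzyme by name, was one of the most abundant of the genes below *SSTL-F*, with 8256 counts in *sstl-s* and 20673 in *SSTL-F*, while at YM it had 3245 in *sstl-s* and 3224 in *SSTL-F*. Reads of near-identical members of such families may have been split by the counting, and the same holds for overlapping and antisense genes.

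A few further genes far below *SSTL-F* belong to none of these lists and were chosen after their values were seen. YELLOW STRIP-LIKE GENE 11, of a family that carries metal chelates, had 153 counts in *sstl-s* and 844 in *SSTL-F* (5.30-fold lower). HIGH-AFFINITY POTASSIUM(K+) TRANSPORTER 6 had 63 counts in *sstl-s* and 282 in *SSTL-F*. PURPLE ACID PHOSPHATASE 27C had 64 counts in *sstl-s* and 382 in *SSTL-F*. All of these had 21 counts or fewer in each YM library. PYRUVATE DECARBOXYLASE 3, of the fermentation pathway, had 29 counts in *sstl-s* and 186 in *SSTL-F*. Water channels had no member 2-fold lower and 1 of 21 higher, but 17 of 21 were below 1, with a median log2 ratio of -0.42. The largest by counts, PLASMA MEMBRANE INTRINSIC PROTEIN 1A, had 11973 counts in *sstl-s* and 13413 in *SSTL-F*.

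Genes named after anthers or microspores gave a divided picture. ANTHER SPECIFIC PROTEIN 6 had 7950 counts in *sstl-s* and 26113 in *SSTL-F* at LpM (3.16-fold lower in *sstl-s*), but 288 in *sstl-s* and 92 in *SSTL-F* at YM. ANTHER SPECIFIC PROTEIN 4 had 10045 counts in *sstl-s* and 18752 in *SSTL-F*. For rice microspore-preferred 2 the counts were 42 in *sstl-s* and 230 in *SSTL-F*. On the other hand CARBON STARVED ANTHER, a MYB regulator of sugar supply to anthers, had 421 counts in *sstl-s* and 364 in *SSTL-F*, and ANTHER-SPECIFIC PROTEIN 8 had 940 in *sstl-s* and 1003 in *SSTL-F*. Over the 15 genes of this list, which was added after the values were seen, 3 were at least 2-fold lower and none higher in *sstl-s*. The gene Os09g0388400 is a HAD-superfamily hydrolase by the study's annotation, and the study counts it as preferred in late pollen. It had 33 counts in *sstl-s* and 389 in *SSTL-F* at LpM (11.3-fold lower). At YM it was low in *sstl-s* as well, with 60 counts against 752 in *SSTL-F*.

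On chromosome 10, neighbouring genes without a name were lower in *sstl-s* together. Runs of at least 3 genes in the tables' order that all passed 2-fold with the whole interval were found 6 times, 5 times lower and once higher in *sstl-s*. A pair of these runs lay close together, between Os10g0149000 and Os10g0150800. Of the 12 genes kept in this stretch, 9 were lower in *sstl-s* with the whole interval past 2-fold, 2 were within 2-fold and 1 was higher. Os10g0149000 had 88 counts in *sstl-s* and 824 in *SSTL-F*. Os10g0150800 had 267 counts in *sstl-s* and 1730 in *SSTL-F*. The fifth gene of the stretch showed the largest difference, with 21 counts in *sstl-s* and 350 in *SSTL-F*, and the fourth the opposite, with 151 in *sstl-s* and 17 in *SSTL-F*. The whole stretch summed to 4851 counts in *sstl-s* and 24438 in *SSTL-F* at LpM, against 5824 in *sstl-s* and 8154 in *SSTL-F* at YM. At YM, 8 of the 11 genes with enough counts were within 2-fold and 3 were lower in *sstl-s*. Among the 5 genes kept on each side, log2 ratios at LpM ran from -1.46 to 3.49, so the block did not end at equal levels on both sides. Whether these neighbours are copies of each other that share reads was not analysed here. The stretch was chosen for description after its values were seen. Serpin-Z2A and Serpin-Z2B, protease inhibitors by name, began another run of 4 genes. Serpin-Z2A had 6 counts in *sstl-s* and 66 in *SSTL-F*, and Serpin-Z2B had 8 in *sstl-s* and 49 in *SSTL-F*. Neither had a count at YM. The run in the other direction held F-box protein 421, with 32 counts in *sstl-s* and 4 in *SSTL-F*, and F-box protein 422, with 66 in *sstl-s* and 15 in *SSTL-F*. The remaining named gene in a run, nucleosome assembly protein 1-like protein 3, a histone chaperone, had 220 counts in *sstl-s* and 772 in *SSTL-F*.

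**Figure D3:**
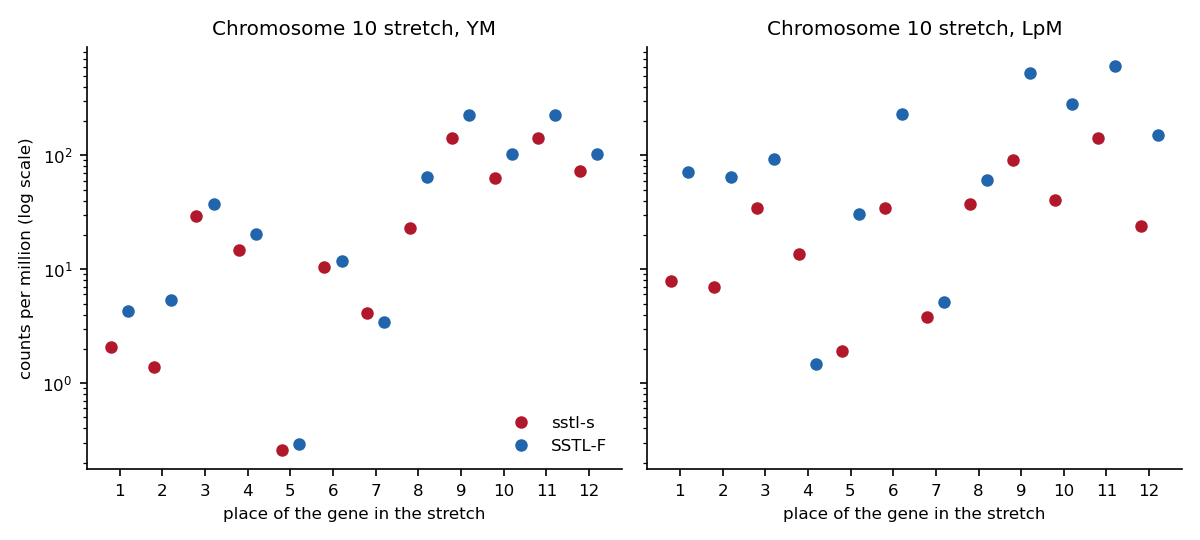
Levels in CPM (log scale, counts below 3 drawn at 3) of the 12 genes kept between Os10g0149000 (place 1) and Os10g0150800 (place 12) on chromosome 10, at YM on the left and LpM on the right, *sstl-s* in red and *SSTL-F* in blue. At LpM the *sstl-s* points lie well below the *SSTL-F* points at 9 places and above at place 4, while at YM the pairs lie closer together.

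The genes past 2-fold at LpM were also compared at YM, whose libraries took no part in choosing them. Of the 245 genes higher in *sstl-s* at LpM by the whole interval, 145 were within 2-fold at YM, 81 stood 2-fold or more above *SSTL-F* there too, 10 were at least 2-fold lower and 9 had too few counts. Their median level at LpM was 10.4 CPM in *sstl-s* and 1.82 CPM in *SSTL-F*, and at YM 19.5 CPM in *sstl-s* and 13.4 CPM in *SSTL-F*. The 422 genes lower in *sstl-s* divided otherwise. At YM, 129 of them had too few counts, 183 were within 2-fold, 74 were at least 2-fold lower in *sstl-s* and 36 at least 2-fold higher. Their median level at LpM was 3.52 CPM in *sstl-s* and 12.4 CPM in *SSTL-F*, and at YM 2.03 CPM in *sstl-s* and 2.41 CPM in *SSTL-F*. The LpM values chose these genes, so their LpM levels are a description. At YM itself, 10.2% of 23348 genes were at least 2-fold higher and 2.94% at least 2-fold lower in *sstl-s*, and 86.8% were within 2-fold. Of those with enough counts at YM, 61.4% of the genes higher and 62.5% of the genes lower at LpM were within 2-fold, smaller shares than that of all genes. With enough counts at YM there were 236 of the genes higher and 293 of the genes lower at LpM. The 81 of 236 and the 74 of 293 are to be read against the shares of 10.2% higher and 2.94% lower. With the whole interval past 2-fold at YM the shares of all genes were 2.59% higher and 0.754% lower. In the same direction, 50 of the 245 genes and 29 of the 422 passed this rule, where 245 and 422 include genes short of counts at YM.

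**Figure D4:**
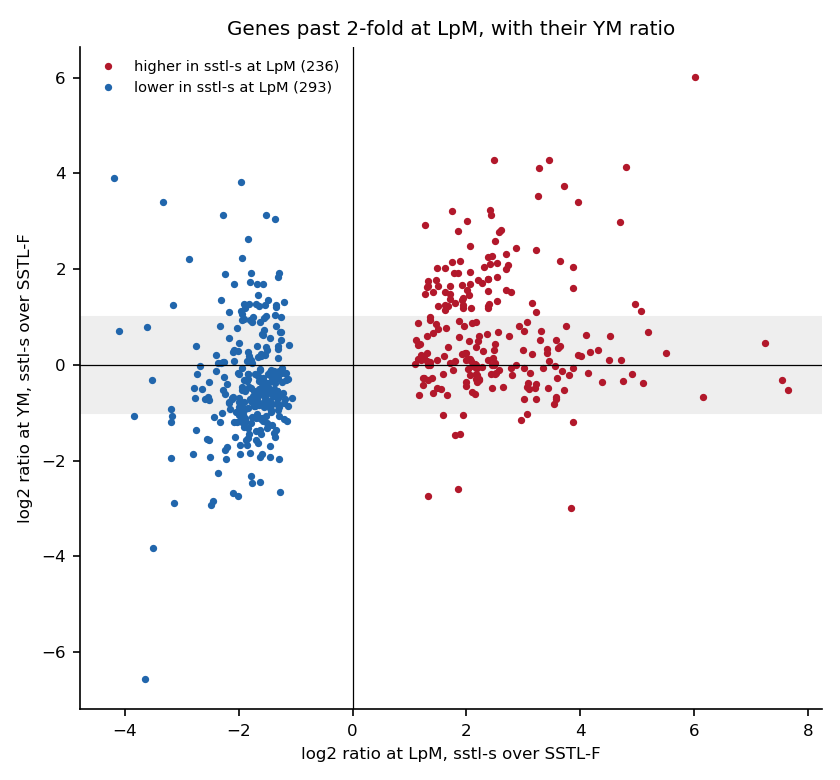
Log2 ratio (*sstl-s* over *SSTL-F*) at LpM on the horizontal axis and at YM on the vertical axis, for the 236 genes higher in *sstl-s* (red) and the 293 lower (blue) whose whole interval passed 2-fold at LpM and that had enough counts at YM. The grey band marks ratios within 2-fold at YM, and 145 red and 183 blue points lie inside it.

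When genes at 0 in a library are left out and 100 counts are asked of the higher one, the largest ratio was that of the unnamed gene Os01g0579000, with 2134 counts in *sstl-s* and 11 in *SSTL-F* at LpM (log2 ratio 7.66) but 3252 in *sstl-s* and 4113 in *SSTL-F* at YM. Of the 8 tapetum regulators kept, 2 were at least 2-fold higher and none lower in *sstl-s*. MICROSPORE AND TAPETUM REGULATOR1, a secreted fasciclin glycoprotein needed by both tissues, had 143 counts in *sstl-s* and 25 in *SSTL-F* at LpM (5.95-fold higher in *sstl-s*), and 662 in *sstl-s* and 625 in *SSTL-F* at YM. TDR INTERACTING PROTEIN2, a bHLH regulator of tapetum degradation, had 416 counts in *sstl-s* and 172 in *SSTL-F* at LpM, and 1129 in *sstl-s* and 994 in *SSTL-F* at YM. TAPETUM DEGENERATION RETARDATION, its partner, had 4811 in *sstl-s* and 4645 in *SSTL-F* at LpM. ETERNAL TAPETUM 1, a further bHLH of tapetal cell death, had 3239 counts in *sstl-s* and 4237 in *SSTL-F*. The remaining 4 also stayed under 2-fold, with log2 ratios from -0.72 (GAMYB-LIKE 2) to 0.79 (UNDEVELOPED TAPETUM 1). ABC TRANSPORTER G FAMILY MEMBER 3, which exports wall precursors in rice anthers, had 421 counts in *sstl-s* and 64 in *SSTL-F* at LpM (6.84-fold higher), and 1139 in *sstl-s* and 1053 in *SSTL-F* at YM. NAC DOMAIN-CONTAINING PROTEIN 118 had 199 counts in *sstl-s* and 17 in *SSTL-F* at LpM (12.2-fold higher), and 744 in *sstl-s* and 513 in *SSTL-F* at YM. ZINC FINGER CCCH DOMAIN-CONTAINING PROTEIN 47 had 152 counts in *sstl-s* and 7 in *SSTL-F* at LpM, and 468 in *sstl-s* and 382 in *SSTL-F* at YM.

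**Figure D5:**
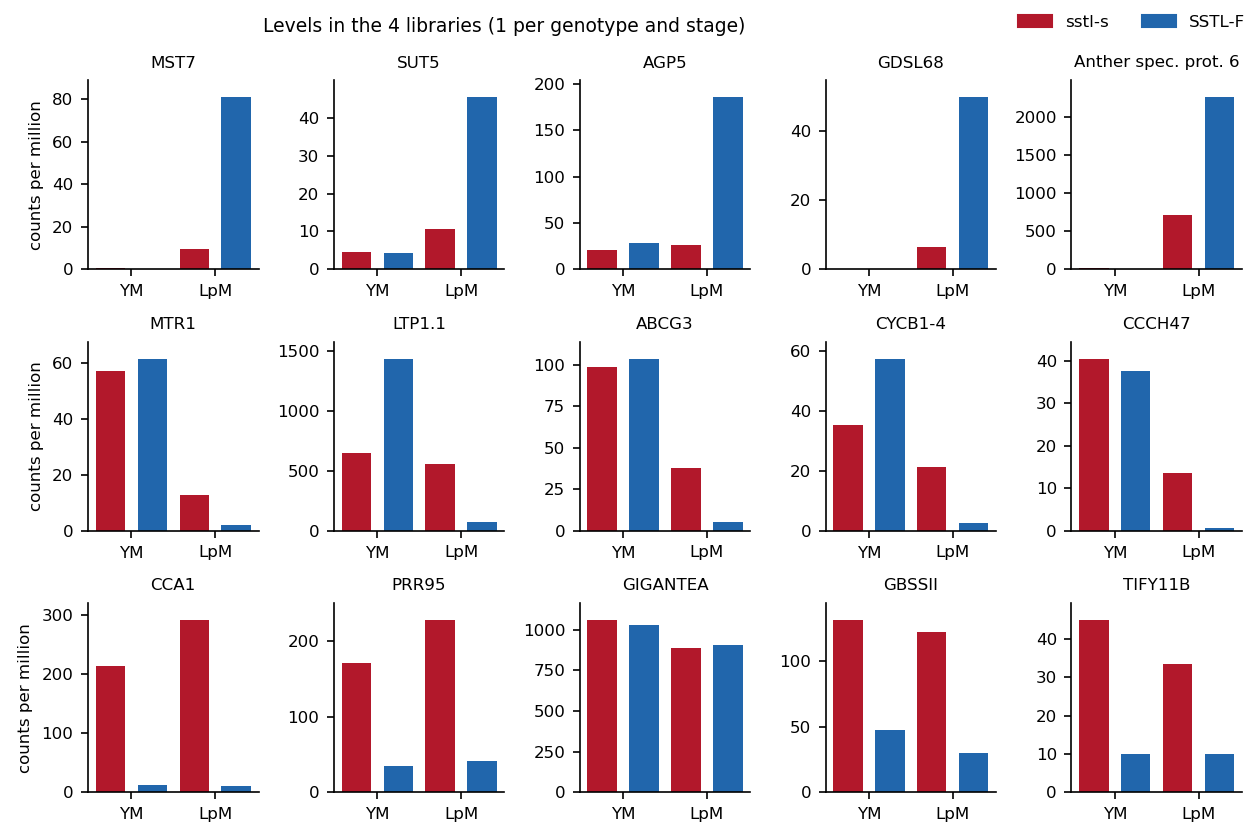
Levels in CPM of 15 genes in the 4 libraries, 1 bar a library, with *sstl-s* in red and *SSTL-F* in blue at YM and at LpM. The upper row shows genes highest in *SSTL-F* at LpM, the middle row genes low in *SSTL-F* at LpM and the lower row genes higher in *sstl-s* at both stages beside GIGANTEA, which was close in all 4.

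Meiosis genes and some mitotic cyclins had higher counts in *sstl-s*. CYCLIN-B1-4, of the cyclins that drive entry into mitosis, had 234 counts in *sstl-s* and 30 in *SSTL-F* at LpM (8.11-fold higher), and 406 in *sstl-s* and 582 in *SSTL-F* at YM. In its list of 65 cyclins and cell cycle kinases, 3 were at least 2-fold higher and 4 lower in *sstl-s*, with a median of 0.17. These counts are near the shares over all genes kept, 4.61% higher and 6.62% lower, so the list as a whole did not stand out. The other higher genes were CYCLIN-A2-1, with 240 counts in *sstl-s* and 108 in *SSTL-F*, and CYCLIN-B1-2, with 393 in *sstl-s* and 201 in *SSTL-F*. CYCLIN-B1-1 stayed under 2-fold, with 513 counts in *sstl-s* and 297 in *SSTL-F*. The 4 lower genes were CYCLIN-U1-1, CYCLIN-U4-3, P-type cyclin 4;3 and CDK-LIKE 6. Of 19 meiosis genes, 7 were at least 2-fold higher and none lower, 18 had a ratio above 1, and the median was 0.36, yet none passed 2-fold with its whole interval. DNA REPAIR PROTEIN RAD51A, a recombinase that repairs breaks, had 145 counts in *sstl-s* and 57 in *SSTL-F*. MEIOTIC PROTEIN DMC1B, its meiotic relative, had 61 counts in *sstl-s* and 21 in *SSTL-F* at LpM, while at YM it had 291 in *sstl-s* and 145 in *SSTL-F*. MEIOSIS ARRESTED AT LEPTOTENE 1, an Argonaute of germ cells, had 918 counts in *sstl-s* and 466 in *SSTL-F*. In both genotypes the LpM counts of these genes were below those of YM.

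Protein-making and protein-folding genes were higher in *sstl-s* by modest amounts. Of 29 ribosomal proteins, 24 had a ratio above 1 and none passed 2-fold, with a median of 0.45. RIBOSOMAL PROTEIN L5 had 2967 counts in *sstl-s* and 1566 in *SSTL-F*, and at YM the list stood at a median of 0.34. In the endoplasmic reticulum, calreticulin 1, a calcium-binding chaperone, had 17013 counts in *sstl-s* and 7665 in *SSTL-F* at LpM (2.31-fold higher), and 18852 in *sstl-s* and 14334 in *SSTL-F* at YM. BiP1, the chief chaperone of that compartment, had 9287 counts in *sstl-s* and 4489 in *SSTL-F*. Its relatives BiP4 and BiP5 differed in the opposite direction, with 416 and 302 counts in *sstl-s* against 773 and 441 in *SSTL-F*. Over 19 folding genes of this compartment, a list added after the values were seen, 4 were at least 2-fold higher and none lower in *sstl-s*. Of 48 heat shock proteins and factors, 9 were at least 2-fold higher and 2 lower (median 0.31). HEAT SHOCK PROTEIN 82A had 4834 counts in *sstl-s* and 2211 in *SSTL-F*. CYTOSOLIC HEAT SHOCK PROTEIN 70-1 had 521 counts in *sstl-s* and 159 in *SSTL-F* at LpM and was level at YM, with 1080 counts in *sstl-s* and 1023 in *SSTL-F*. HEAT SHOCK PROTEIN 101, a disaggregase, had 88 counts in *sstl-s* and 23 in *SSTL-F*. Of 40 glycolysis enzymes none passed 2-fold, and the median was 0.00.

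A further set of genes was higher in *sstl-s* at both stages. The summed carpel and ovule markers were higher in *sstl-s* at both stages too, with the values given above, and their part in this set was not tested. CIRCADIAN CLOCK ASSOCIATED 1, a MYB factor that peaks at dawn in the plant clock, had 3232 counts in *sstl-s* and 121 in *SSTL-F* at LpM (27.8-fold higher, interval of the log2 ratio 4.53 to 5.07), and 2481 in *sstl-s* and 124 in *SSTL-F* at YM. PSEUDO-RESPONSE REGULATOR 95, a repressor in the same clock, had 2527 counts in *sstl-s* and 479 in *SSTL-F* at LpM, and 1982 in *sstl-s* and 362 in *SSTL-F* at YM. PSEUDO-RESPONSE REGULATOR 73 differed less, with 4456 counts in *sstl-s* and 2911 in *SSTL-F*, and so did PSEUDO-RESPONSE REGULATOR 59, with 596 in *sstl-s* and 369 in *SSTL-F*. Heading date 2, of the same family, had 1215 counts in *sstl-s* and 737 in *SSTL-F*. GIGANTEA, a later-phase part of the clock, had 9825 counts in *sstl-s* and 10450 in *SSTL-F*, and TIMING OF CAB EXPRESSION 1 had 681 in *sstl-s* and 803 in *SSTL-F*, while at YM the counts of that gene were 888 in *sstl-s* and 552 in *SSTL-F*. The gene named LATE ELONGATED HYPOCOTYL, with 65 counts in *sstl-s* and 161 in *SSTL-F*, was lower. In all, 2 of 12 clock genes were at least 2-fold higher and 1 lower in *sstl-s*. This list was added after the values were seen. The hour at which anthers were collected is not given in the sources used here, and its part in these values was not tested.

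Some light-harvesting and TIFY genes also differed at both stages. CHLOROPHYLL A/B BINDING PROTEIN 2R, which binds chlorophyll in the antenna of photosystem II, had 2557 counts in *sstl-s* and 1437 in *SSTL-F* at LpM, while at YM it had 860 in *sstl-s* and 330 in *SSTL-F*. Light-harvesting protein CP29 did not go with it, with 739 counts in *sstl-s* and 927 in *SSTL-F* at LpM, and CP26 was level, with 1142 in *sstl-s* and 1146 in *SSTL-F*. The small subunits of Rubisco, the enzyme that fixes carbon dioxide, included RuBisCO small subunit 3, which had 213 counts in *sstl-s* and 479 in *SSTL-F*. Of 43 photosynthesis genes, 2 were at least 2-fold higher and 9 lower in *sstl-s* at LpM (median -0.41). The 8 green-tissue markers together had 5938 counts in *sstl-s* and 4500 in *SSTL-F*, none at 0 in any library. This sum hides a split, as the chlorophyll a/b binding genes lay above *SSTL-F* and the RuBisCO small subunits level with it or below. RuBisCO small subunit 4 had 51 counts in *sstl-s* and 183 in *SSTL-F*. The part of these markers in the other differences was not tested. Among 10 TIFY genes, a family of repressors of the jasmonate response and their relatives, 9 had a ratio above 1, of which 2 passed 2-fold. TIFY GENE 11B had 371 counts in *sstl-s* and 115 in *SSTL-F* at LpM, while at YM it had 519 in *sstl-s* and 103 in *SSTL-F*. WRKY GENE 71, a defence regulator, had 186 counts in *sstl-s* and 42 in *SSTL-F* at LpM, and 354 in *sstl-s* and 91 in *SSTL-F* at YM. SUBMERGENCE 1C, an ethylene response factor, had 271 counts in *sstl-s* and 54 in *SSTL-F*. Their families held both directions, as 5 of 51 WRKY factors were at least 2-fold higher and 6 lower, and 6 of 59 ethylene response factors were higher and 2 lower. Of 62 NAC factors, 13 were at least 2-fold higher and 2 lower in *sstl-s* (median 0.15), and of 47 MYB factors, 2 were higher and 8 lower (median -0.24). Over all genes kept, 4.61% were at least 2-fold higher and 6.62% lower.

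A single gene was seen in 1 genotype alone at both stages. Os01g0153700 had 187 counts in *sstl-s* and 0 in *SSTL-F* at LpM, at least 64.8-fold higher in *sstl-s* when the 0 is set to 3 counts, and 220 in *sstl-s* and 0 in *SSTL-F* at YM. No gene with at least 20 counts in both *SSTL-F* libraries was at 0 in both *sstl-s* libraries.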

How the data were processed

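The authors collected anthers, extracted RNA with TRIzol, sequenced single-end libraries on an Illumina HiSeq instrument and processed the reads in CLC Genomics Workbench with RAP-DB genes. Mapping settings and use of strand are not given in the sources used here. They deposited for each library 1 table with a total count of reads per gene, and RPKM, TPM and CPM columns made by the authors. The CPM column was treated as a score, since the sum of the deposited values differs between libraries, and was not used. TPM was used only for levels between genes. Here counts were divided by the library total, and log2 ratios of *sstl-s* over *SSTL-F* were computed without a prior count. A 0 was set to 3 counts, and such a ratio is a bound. With 1 library a group no test was possible and no p-value is given. For each ratio, a 95% interval was taken from the exact Clopper-Pearson limits on how a gene's reads divided between both libraries. Genes needed 10 counts in either library of a stage.

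Lists (38, and 16 corrected or added) were fixed by words in gene names, with a median and counts past 2-fold for each. The members and lists were chosen with earlier results of these data known. Some of the first words missed their genes or took in others (water channels, exine genes, LEA proteins, stamen markers), so those lists were rewritten after the names and values had been seen. Named by rule were the 12 genes in each direction with the largest interval bound nearest to no difference among genes with 100 counts or more (of those without a name, at most 2), up to 2 genes per list and direction, the 10 most abundant genes of each LpM library, markers, and genes of runs. The text leaves some of these unnamed, and others were chosen after their values were seen. No sequences or coordinates were used. The counting step was tested on simulated data.

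The alternatives were TMM scaling (edgeR 4.0.16) and size factors of DESeq2 1.42.0 in R 4.3.3, prior counts of 1 and 5, no filter, a minimum of 50 counts, the deposited RPKM as log2(RPKM + 1), library totals without the 100 most abundant genes and, added after the data were seen, ratios centred on their median. Calculations ran in Python 3.11.15 (scipy 1.17.1, pandas 2.3.3, numpy 2.4.6), and plots in matplotlib 3.10.9.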

Additional observations from a re-analysis of the deposited data

Results flagged for a closer look

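Ratios that turned round between the stages drew attention, and with 1 library for each genotype and stage none of these differences between stages was tested. In 16 genes the whole counting interval was past 2-fold at both stages in opposite directions, of which 6 were higher and 10 lower in *sstl-s* at LpM. Among those, 4 named genes had at least 100 counts at each stage. Lipid transfer protein 1.1 had a log2 ratio of *sstl-s* over *SSTL-F* of 2.96 at LpM and -1.15 at YM. ABA-8'-HYDROXYLASE 1, which breaks down abscisic acid, had -1.29 at LpM, with 223 counts in *sstl-s* and 566 in *SSTL-F*, and 1.91 at YM, with 227 in *sstl-s* and 53 in *SSTL-F*. ARABINOGALACTAN PROTEIN 27 had -1.78 at LpM and 1.92 at YM. ANTHER SPECIFIC PROTEIN 6 had -1.66 at LpM and 1.46 at YM.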

How the results depend on the processing

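No paired analysis was possible because each genotype and stage has 1 library, and for the same reason no library could be left out. The counts of genes past 2-fold at LpM depended on how low counts were treated. The 1099 genes higher in *sstl-s* became 686 with a prior count of 5, 2826 without a filter and 407 with a minimum of 50 counts, and the 1581 lower genes became 3005 without a filter and 722 with a minimum of 50 counts. On the deposited RPKM, as log2(RPKM + 1), 462 genes were higher and 435 lower. The share of calls that were lower was then 48.5%, against 59.0% on total counts, and 51.5% without a filter. RPKM moved the median log2 ratio of all genes to 0.20, because its library sizes stood in another ratio than the total counts (0.847 against 0.961, *sstl-s* over *SSTL-F*). Of 52 lists, 6 had a median of -0.5 or lower, which became 3 on RPKM, and 5 had a median of 0.3 or higher, which became 12 on RPKM and 3 with TMM, with DESeq2 size factors and, added after the data were seen, with the median set to 0. Changing the scale to RPKM turned the sign of 14 list medians, none above 0.142 in size. Of the 422 genes lower in *sstl-s*, 183 were within 2-fold at YM and 74 lower there too, which became 115 and 46 with a minimum of 50 counts. No list median or named gene that was past 2-fold changed direction under the 8 alternatives computed for them. This could hardly have come out otherwise and is no check of the differences. The filters left each gene's ratio unchanged, and the library sizes of RPKM shifted the log2 ratios by only 0.18. Leaving the 100 most abundant genes out of the library size was computed only for the counts of genes and not for lists or named genes. Depth limits genes under 50 counts, whose ratio had a counting interval with a median width of 2.11 on the log2 scale. Differences between plants, harvests or library preparations cannot be told apart from those between genotypes.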

Other observations

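Gene groups outside the account above showed both directions at LpM. Their counts stand beside shares of 4.61% higher and 6.62% lower over all genes kept. Of 22 genes in the flavonoid list, 6 were at least 2-fold lower in *sstl-s* and none higher. Those 6 had at most 99 counts in either LpM library. Chalcone synthase, the first enzyme of that pathway, had 1318 counts in *sstl-s* and 2356 in *SSTL-F* (1.72-fold lower). At YM it was higher in *sstl-s*, with 336 counts against 106 in *SSTL-F*. The list also took in the exine gene tetraketide alpha-pyrone reductase 1 by its other name. Of 31 glutathione S-transferases, detoxifying enzymes, 6 were at least 2-fold lower and 1 higher. Of 107 auxin genes, 12 were at least 2-fold lower and 2 higher, with a median log2 ratio of -0.05. MADS-box genes, which include the regulators of floral organ identity, had 1 of 27 members at least 2-fold lower and none higher, with a median of 0.25. RESPIRATORY BURST OXIDASE HOMOLOG F, of a family that makes superoxide at the membrane, had 465 counts in *sstl-s* and 122 in *SSTL-F* at LpM and was chosen after its values were seen.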
